A study of Mus musculus with 6 samples.

Results

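The 40 genes described here carry out or license the copying of DNA and mark the passage from G1 into S phase. Members were found by the gene names in the scanner files of a mouse expression array, with no threshold on a measured value. All 40 were found, on 53 probes, and all 40 were among the 20579 genes tested, out of 27975 genes with any probe. In the signal of the forestomach sample, the probe standing for each member was well above background on all 6 arrays and never saturated. No member thus entered the test through only 1 group. Saturation of the reference signal was not examined. The members fall into 5 subgroups: 15 genes of the MCM helicase and the origin, 10 of the polymerases and the clamp loader, 6 of nucleotide supply, 5 of the E2F and cyclin E axis, and 4 of chromatin duplication, a remainder that the other 4 subgroups do not cover.

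Origins of replication are licensed in G1, when the origin recognition complex, Cdc6 and Cdt1 load the ring of Mcm2 to Mcm7 onto DNA, and fire in S phase, when Cdc45 and the GINS complex turn that ring into an active helicase. Primase and polymerase alpha then start each strand, the clamp loader places the sliding clamp Pcna, and nuclease and ligase join the fragments. E2F factors switch on many of these genes once cyclin E and its kinase have released them from retinoblastoma proteins. In a stratified epithelium such as that of the forestomach, dividing cells lie in the basal layer.

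The RNA came from epithelial sheets of the forestomach, the squamous-lined chamber of the mouse stomach. The 3 control mice carried K5-CreER, a Cre recombinase that tamoxifen switches on and that the keratin 5 promoter confines to basal keratinocytes and other cells using that promoter. The 3 mutant mice carried K5-CreER and also Rosa26Sox2/Sox2, a Sox2 insertion at both copies of the Rosa26 locus. Animals of both groups were 129/Sv and C57/BL6 mixture, received 2 doses of tamoxifen at 7 weeks and were 12 weeks old per the labels, so tamoxifen and the recombinase are common to both groups. The labels call the arrays of a group biological replicates and do not say whether RNA was pooled. The p-values thus rest on the scatter of these arrays alone, and some of it may be technical. Each array set the sample (Cy5) against a reference RNA from 11 mouse cell lines (Cy3), with no dye swap. Values below are log2 of sample over reference on each array, and differences are mutant minus control. Since the reference comes from cultured lines, a ratio below 0 says only that the gene was lower in the sheets than in that reference.

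The arrays were not of equal quality or equally distinct. Control 3 had 62.6% of 41174 probes well above background and a median signal of 4.81 times background, against 73.2% to 76.2% and 12.1 to 13.1 times on the other arrays. Over all genes the spread between 2 arrays, as a scaled median absolute deviation, was 0.156 log2 units for controls 1 and 2 and 0.104 for mutants 2 and 3, and 0.326 to 0.730 for every other pair. Whether those pairs are separate animals is not given in the labels, and results are also given with each pair counted as 1 sample. Mutants 2 and 3 carried Xist at 16.1 in log2 sample signal and the Y-linked gene Ddx3y at 6.74 and 6.78, while the 3 controls and mutant 1 carried Xist at 7.67 to 11.3 and Ddx3y at 12.5 to 12.9. The array's 1 probe for Sox2 gave log2 ratios of 6.26, 6.09 and 6.38 in controls and 5.67, 5.83 and 5.95 in mutants, lower in all 3 mutants (difference -0.43, SE 0.14, adjusted p = 0.143, limma). No source used here says whether the inserted Sox2 contains the sequence of that probe, so it does not check the genotype labels. Basal keratinocyte markers were present on all arrays, with Krt5 at 2.97 to 3.71 and Krt14 at 2.23 to 3.40, and glandular stomach markers were also detected, with Gkn2 at 4.58 to 5.63 on 5 arrays and 0.84 on control 3.

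The stretches just upstream of transcription start sites are shown because E2F factors bind there, and because members with and without the E2F letters stand on both sides of the expression results below. Promoter windows of RefSeq (build GRCm38.p6, 250 bases before to 50 after the start) were held for 35 members in 41 windows. They were searched on both strands for exact matches to 4 spellings of the E2F site, TTTCCCGC, TTTCGCGC, TTTGCCGC and TTTGGCGC, and to the box CCAAT. Near matches were not counted. The letters of an E2F site were in 14 of 41 member windows (34.1%), against 2.26% of 32851 windows of all genes, and CCAAT was in 58.5% against 37.4%. By gene, 8 of 12 MCM and origin genes, 4 of 9 polymerase and clamp loader genes, 0 of 6 nucleotide supply genes, 1 of 4 E2F and cyclin E genes and 1 of 4 chromatin genes had a match. The 160 bases before the start are printed 5′ to 3′ on the strand of the gene, with matches to an E2F spelling in capitals. Where 2 matches on opposite strands overlap, the capitals run on. Mcm5, Mcm6 and Orc1 stand for helicase and origin members with a match. Cdc6 and Gins3 carry a match too but hardly differed between the groups, and Prim1 and Fen1, which passed the test, have no exact match in their windows. Their stretches do hold near matches, gttcccgc in Prim1 and gttcgcgc in Fen1, each 1 letter away from a searched spelling. A window without an exact match may therefore still hold an E2F site.
Mcm5 (chr8:75109349-75109508, plus strand): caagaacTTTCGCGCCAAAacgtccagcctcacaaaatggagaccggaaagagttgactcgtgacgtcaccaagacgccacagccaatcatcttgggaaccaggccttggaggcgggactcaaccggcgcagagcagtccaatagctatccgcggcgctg
Mcm6 (chr1:128359706-128359865, minus strand): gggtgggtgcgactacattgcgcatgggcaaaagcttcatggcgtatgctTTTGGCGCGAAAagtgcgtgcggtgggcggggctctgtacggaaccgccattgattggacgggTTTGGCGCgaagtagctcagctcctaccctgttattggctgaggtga
Orc1 (chr4:108579294-108579453, plus strand): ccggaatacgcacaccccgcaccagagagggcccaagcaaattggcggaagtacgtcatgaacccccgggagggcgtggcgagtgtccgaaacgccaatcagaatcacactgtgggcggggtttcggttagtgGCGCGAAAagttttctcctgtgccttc
Cdc6 (chr11:98907991-98908150, plus strand): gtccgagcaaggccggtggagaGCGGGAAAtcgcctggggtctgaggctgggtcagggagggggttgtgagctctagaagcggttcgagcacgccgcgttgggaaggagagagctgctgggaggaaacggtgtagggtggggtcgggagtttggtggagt
Gins3 (chr8:95633399-95633558, plus strand): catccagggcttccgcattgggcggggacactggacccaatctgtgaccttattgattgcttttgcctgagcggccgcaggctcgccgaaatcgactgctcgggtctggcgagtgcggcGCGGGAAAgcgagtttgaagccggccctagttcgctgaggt
Prim1 (chr10:128015055-128015214, plus strand): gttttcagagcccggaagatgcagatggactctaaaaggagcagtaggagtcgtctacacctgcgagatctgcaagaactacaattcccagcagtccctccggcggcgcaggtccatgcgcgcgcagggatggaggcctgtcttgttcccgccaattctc
Fen1 (chr19:10203922-10204081, minus strand): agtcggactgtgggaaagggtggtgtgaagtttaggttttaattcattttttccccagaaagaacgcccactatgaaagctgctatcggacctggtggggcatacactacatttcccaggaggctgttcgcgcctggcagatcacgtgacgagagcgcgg
Those letters describe the windows; no binding was measured here.

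**Figure D1:**
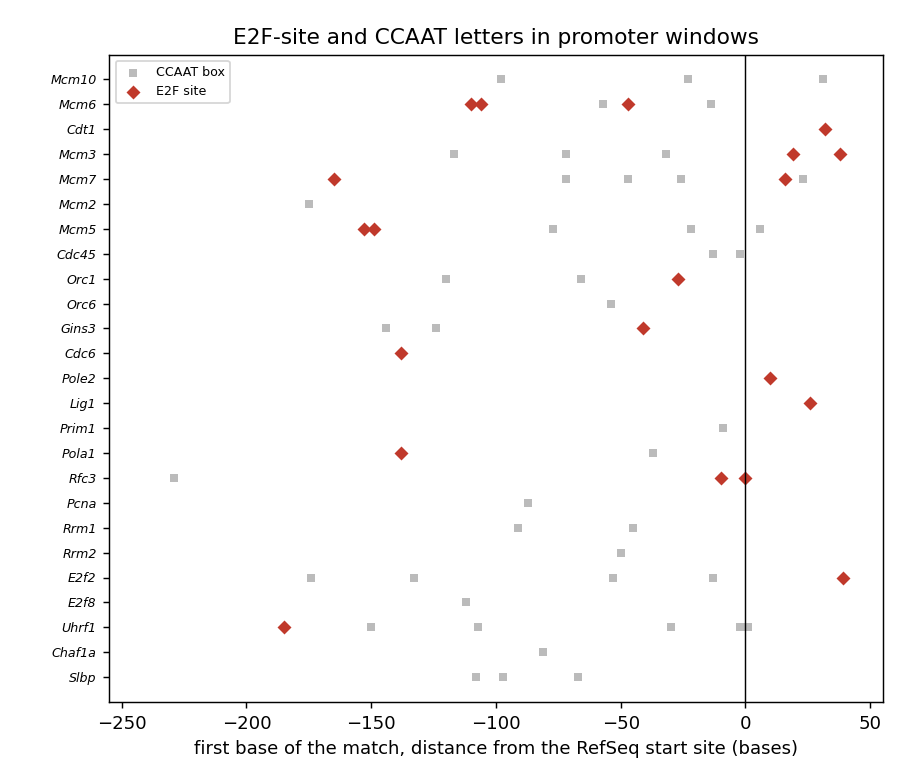
Distance in bases from the transcription start (x axis, 0 at the start, negative upstream) of E2F letters and CCAAT boxes in the RefSeq windows of the members (1 row per gene with a match, in the order of the subgroups). E2F letters appear in 14 of 41 windows, most of them among the MCM and origin genes and none among the nucleotide supply genes.

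Most of these genes read higher in the Sox2 mutants, and few passed the test. Of 40 members, 38 had a positive difference, against 50.6% of all genes tested, and the median difference was 0.69 log2 units, against 0.01 for all genes. The 3 mutant values lay above all 3 control values for 29 members, or 72.5%, against 19.6% of all genes, and below them for 0, against 18.2%. In the limma fit over all genes, 2 members, Prim1 and Fen1, passed an adjusted p of 0.05 as higher (1.39% of all genes did) and 0 as lower (1.43%). In either direction 2.82% of genes passed. At an unadjusted p under 0.05 there were 23 of the 40 members, against 4908 of 20579 genes (23.8%). In RNA of a whole sheet, more cells in S phase and more of these transcripts per cell cannot be told apart.

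The size of the shift came from both ends of the array set. The median member ratio was -1.73, -1.81 and -2.16 in controls 1 to 3 and -0.87, -1.49 and -1.38 in mutants 1 to 3. Mutant 1 was the highest of the 6 arrays for 36 of 40 members, against 26.3% of all genes. Control 3 was the lowest for 32 of 40, against 38% of all genes. The medians of the groups still did not overlap. Taken without both of those arrays, mutants 2 and 3 exceeded controls 1 and 2 by a median of 0.35 over the members, against -0.01 over all genes. Both mutants lay above both controls for 33 of 40 members, against 35.8% of all genes. In that comparison sex and genotype cannot be told apart, since by Xist and Ddx3y both mutants left differ from both controls. Over all 6 arrays sex and genotype are also mixed in part, since by these genes mutant 1 alone of the mutants goes with the 3 controls. The part of sex in the members' differences was not tested. With mutant 1 kept and control 3 left out, all mutants lay above controls 1 and 2 for 31 of 40 members, against 25.6% of all genes. Leaving out control 3 made the difference smaller by over 1.5 times for 10 of the 38 positive members, leaving out mutant 1 did so for 14, and leaving out both for 29. By channel, the members' median difference was 0.64 in the sample and -0.07 in the reference.

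**Figure D2:**
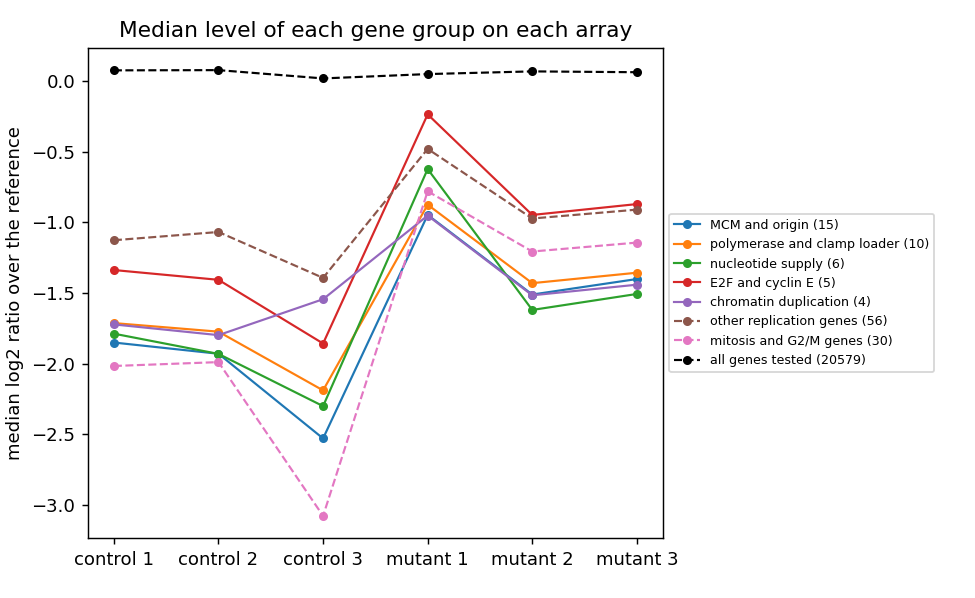
Median log2 ratio of sample over reference (y axis) for each subgroup, for other replication genes, for mitosis and G2/M genes and for all genes, on each of the 6 arrays (x axis). In each of the 5 subgroups all mutant medians lie above all control medians, from -2.53 on control 3 to -0.95 on mutant 1 for the MCM and origin genes, while the median of all genes stays between 0.02 and 0.08.

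Among the helicase and origin genes, all 15 differences were positive, with a median of 0.77. Of these genes, 12 (80%) had all mutants above all controls, against 19.6% of all genes. Mcm10, which helps to start the helicase and to hold polymerase alpha at the fork, had the largest difference of the subgroup (probe at chr2:4911845-4911904, mm9 as in the file headers). It read -2.02, -2.27 and -2.81 in controls and -0.42, -1.27 and -1.12 in mutants. All mutants lay above all controls, by 1.43 (SE 0.30, 2.69-fold, adjusted p = 0.0646). Mcm5, a ring subunit with 2 overlapping E2F matches at the far end of the stretch printed above, read -1.32, -1.28 and -1.64 in controls and -0.46, -0.82 and -0.82 in mutants. Again the groups stood apart, by 0.72 (SE 0.17, 1.64-fold, adjusted p = 0.0813). The other ring subunits gave differences of 0.77 for Mcm2, 0.89 for Mcm3, 1.12 for Mcm4, 0.91 for Mcm6 and 0.87 for Mcm7, with adjusted p from 0.105 to 0.247, and none of the 6 subunits of the ring passed. The probe for Mcm3 bears another name in the file of control 3, and a second Mcm3 probe gave 0.95. These sizes lean on the 2 outer arrays: Mcm2 was 0.46 without control 3, 0.48 without mutant 1 and 0.17 without both, and Mcm3 was 0.57, 0.65 and 0.33. Without both arrays Mcm4 was 0.47, Mcm6 0.38 and Mcm7 0.50.

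The loaders of that ring were less uniform. Cdt1, which brings the ring to the origin, was 0.90 higher and Orc1, the largest subunit of the recognition complex, 0.66 higher, while Orc6 was 0.41 higher with overlapping groups. Cdc6, the ATPase that loads the ring together with Cdt1, read -1.02, -1.13 and -0.88 in controls and -1.04, -0.99 and -0.87 in mutants. Its 6 values were intermixed and the difference was 0.04 (SE 0.12, 95% interval -0.25 to 0.34, adjusted p = 0.846), with 0.11 on its second probe. Of the factors that complete the helicase, Cdc45 was 0.67, Gins1 0.83 and Gins2 0.61 higher, all with groups apart. Gins3, a subunit of the same GINS complex, was 0.06 higher with overlapping groups (SE 0.16, 95% interval -0.32 to 0.45, adjusted p = 0.836). Of 22 alternative settings the sign turned in 6 for Gins3 and in 7 for Cdc6.

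**Figure D3:**
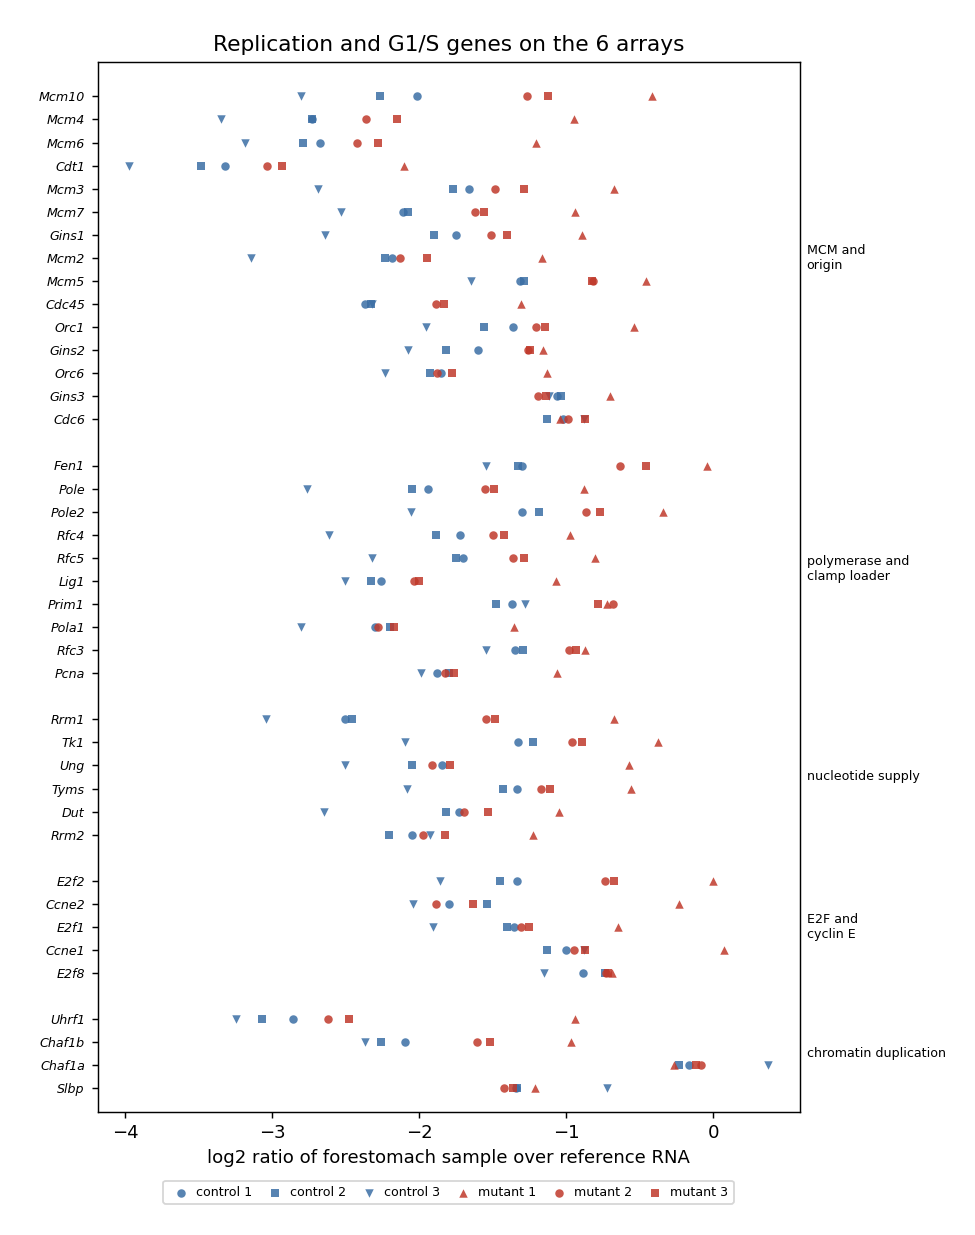
Log2 ratio of sample over reference for each member (rows, by subgroup), with 1 point per array in the colour of its group. For 29 of 40 members every mutant point lies above every control point, and mutant 1 is the highest for 36.

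Both members that passed the test are enzymes of strand synthesis. Prim1, the catalytic subunit of primase (probe at chr10:127466952-127467011, mm9), read -1.37, -1.48 and -1.28 in controls and -0.73, -0.68 and -0.78 in mutants. The mutants were close together and all lay above the controls, with control 3 the highest control and mutant 1 the middle mutant. It rose by 0.65 (SE 0.11, 1.57-fold, adjusted p = 0.0452), and the difference was 0.69 between mutants 2 and 3 and controls 1 and 2. Part of that ratio lay in the reference channel, which was -0.23 in mutants minus controls against 0.41 in the sample channel. Fen1, the flap endonuclease that trims Okazaki fragments (probe at chr19:10274175-10274234, mm9), read -1.30, -1.33 and -1.54 in controls and -0.04, -0.63 and -0.46 in mutants. It rose by 1.01 (SE 0.18, 2.02-fold, adjusted p = 0.0476), all mutants lay above all controls, and nearly all of it was in the sample channel (0.94, against -0.07 in the reference). Both calls sit close to the threshold: over 22 alternative settings Prim1 passed in 8 and Fen1 in 5. The adjusted p in limma ran from 0.000431 to 0.552 and from 0.000745 to 0.579. The difference stayed positive, at 0.41 to 0.78 and 0.77 to 1.14. These settings are not independent. Each gene has 1 probe, so changing the probe filter or averaging probes left its values as they were. The scan day as a block was in effect the same fit as leaving out control 3. Under array weights, and without control 3 and mutant 1, 41.9% and 37.6% of all genes passed.

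The rest of the subgroup was also positive, for all 10 members, with a median of 0.72. The clamp loader subunits Rfc3, Rfc4 and Rfc5 were 0.47, 0.77 and 0.77 higher, the leading-strand polymerase subunits Pole and Pole2 0.94 and 0.85, and Lig1, the ligase that seals Okazaki fragments, 0.66, each with groups apart and adjusted p of 0.0981 or above. Pola1, the catalytic subunit of polymerase alpha, was 0.50 higher with overlapping groups, or 0.32 without control 3, 0.21 without mutant 1 and 0.03 without both. Pcna, the sliding clamp and a common marker of cycling cells, read -1.88, -1.80 and -1.99 in controls and -1.06, -1.83 and -1.76 in mutants. Mutant 1 stood well above the controls while mutants 2 and 3 lay beside the highest control, and the difference was 0.34 (SE 0.22, adjusted p = 0.394), or 0.04 between mutants 2 and 3 and controls 1 and 2.

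Of the 6 nucleotide supply genes, all differences were positive, with a median of 0.69. All mutants lay above all controls for 4 (66.7%), against 19.6% of all genes. Rrm1, the large subunit of ribonucleotide reductase (probe at chr7:109617223-109617283, mm9), had the largest difference of all 40 members. It read -2.51, -2.46 and -3.04 in controls and -0.67, -1.54 and -1.48 in mutants, with every mutant above every control, by 1.44 (SE 0.29, 2.71-fold, adjusted p = 0.0593). Rrm2, the small subunit that pairs with it, read -2.05, -2.21 and -1.93 in controls and -1.23, -1.97 and -1.82 in mutants. There the groups overlapped and the difference was 0.39 (SE 0.22, adjusted p = 0.324). Tk1, thymidine kinase of the salvage route, read -1.33, -1.23 and -2.09 in controls and -0.38, -0.96 and -0.89 in mutants, a difference of 0.81 (SE 0.28, adjusted p = 0.160) with groups apart and control 3 lowest. Tyms, thymidylate synthase, was 0.67 higher on its brightest probe and 0.75 on another, but 0.06 on the remaining one, so its probes disagree. Dut, which removes dUTP, was 0.64 higher, and Ung, the glycosylase that cuts uracil from DNA, 0.71 higher with overlapping groups and mutant 1 above mutants 2 and 3 by 1.28.

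The E2F and cyclin E genes had a median difference of 0.49, with all 5 positive. For 3 (60%) all mutants lay above all controls, against 19.6% of all genes. E2f2, an activating E2F, read -1.34, -1.45 and -1.86 in controls and -0.00, -0.74 and -0.67 in mutants, higher in every mutant by 1.08 (SE 0.25, 2.11-fold, adjusted p = 0.0786). E2f1, another activator, read -1.36, -1.41 and -1.90 in controls and -0.65, -1.31 and -1.25 in mutants. Its groups did not overlap, but mutants 2 and 3 lay only 0.10 above controls 1 and 2, and the difference of 0.49 had an adjusted p of 0.273. E2f8, a repressing E2F, was 0.21 higher. Ccne2, a cyclin E, read -1.80, -1.54 and -2.04 in controls and -0.23, -1.88 and -1.63 in mutants, so mutant 1 alone was high. Its difference was 0.54 (SE 0.44, adjusted p = 0.476) over all arrays and -0.09 without mutant 1 and control 3. Ccne1, the other cyclin E, was 0.42 higher with overlapping groups and mutant 1 above mutants 2 and 3 by 0.98.

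The chromatin genes were the only subgroup with differences of both signs. Chaf1b, the middle subunit of the assembly factor CAF-1, read -2.10, -2.26 and -2.37 in controls and -0.96, -1.61 and -1.52 in mutants, higher in every mutant by 0.88 (SE 0.20, adjusted p = 0.0772). Chaf1a, the large subunit of the same factor, read -0.16, -0.23 and 0.37 in controls and -0.26, -0.09 and -0.11 in mutants. Control 3 was the highest array and the others lay together, for a difference of -0.15 (SE 0.19, adjusted p = 0.663). Uhrf1, which recruits maintenance DNA methylation to new DNA, read -2.86, -3.07 and -3.25 in controls and -0.94, -2.62 and -2.48 in mutants. All mutants were above all controls, mutant 1 by far the most, and the difference of 1.05 had an adjusted p of 0.221 (SE 0.45). Slbp, the stem-loop binding protein of histone mRNAs, read -1.34, -1.33 and -0.72 in controls and -1.21, -1.42 and -1.36 in mutants, a difference of -0.20 (SE 0.20, adjusted p = 0.567) with control 3 again the highest array.

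**Figure D4:**
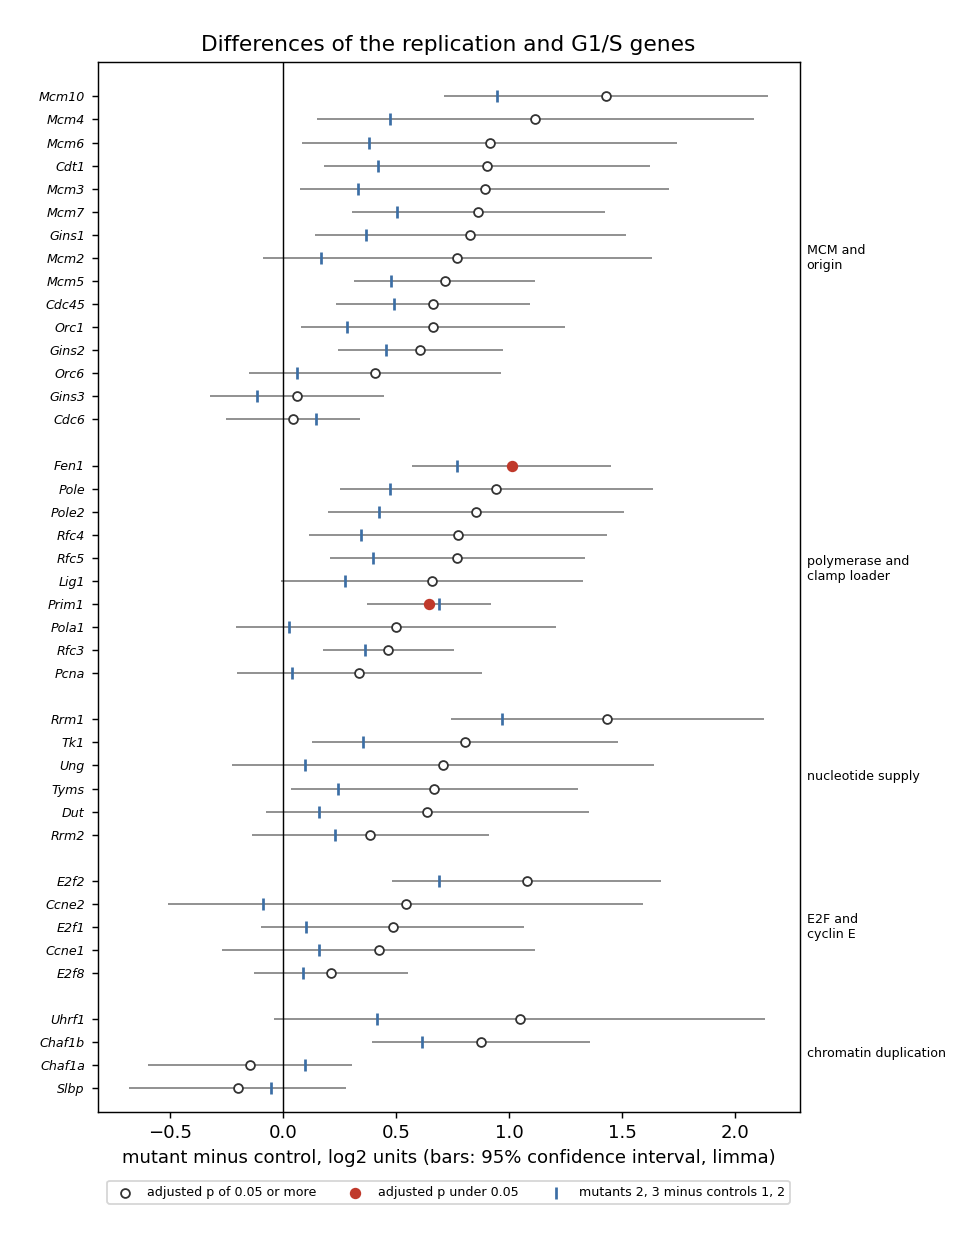
Mutant minus control difference of each member in log2 units (x axis), with bars for the 95% interval of the limma fit (n = 3 per group), by subgroup, and a tick for mutants 2 and 3 minus controls 1 and 2. The differences run from -0.20 (Slbp) to 1.44 (Rrm1), and Prim1 and Fen1 are the 2 that passed.

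Members with and without the E2F letters overlapped in their differences. The 14 genes with a match had a median of 0.78 (range 0.04 to 1.08), all positive and 11 with groups apart. The 21 genes whose windows held no match had a median of 0.67 (range -0.20 to 1.44), with 19 positive and 14 with groups apart. Over all genes 50.6% were positive and 19.6% had groups apart upward. For 5 members, Ccne2, Gins1, Gins2, Mcm4 and Pole, no window was held, and their median was 0.83. Cdc6 and Gins3, with a match each at 138 and 41 bases before the start, were the 2 lowest differences of the matched genes, and the highest, E2f2, is itself an E2F.

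A further 56 genes of replication, outside the 40, had a smaller median difference. Differences were positive for 46 of them (82.1%, median 0.52), against 50.6% of all genes. All mutants lay above all controls for 35 (62.5%), against 19.6% of all genes. By limma 0 passed the adjusted p of 0.05 in either direction, against 2.82% of all genes. An unadjusted p under 0.05 was found for 25 of the 56, against 4908 of 20579 genes (23.8%). The smallest p belonged to Tipin of the fork protection complex (1.15 higher, adjusted p = 0.0647), to Cdc7, the kinase that fires licensed origins (1.28 higher, adjusted p = 0.0649), and to Dscc1, a subunit of an alternative clamp loader (0.97 higher, adjusted p = 0.0762). Gins4, the remaining GINS subunit, was 0.62 higher, the single-strand binding protein subunit Rpa1 0.54 and the checkpoint adaptor Clspn 0.99, each with groups apart. Groups also stood apart downward for 3 of the 56 genes, against 18.2% of all genes. Singled out after their values were seen, they were Orc4 at -0.22, Orc5 at -0.32 and E2f5 at -0.21.

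Genes of mitosis and G2/M read higher as well. All 30 were higher, all with groups apart, with a median of 1.30. Over all genes 50.6% were higher and 19.6% had groups apart upward. By limma 2 passed the adjusted threshold as higher, against 1.39% of all genes. The 2 past the adjusted threshold, named after their values were seen, were Kif4 (1.22 higher, adjusted p = 0.0213) and Hmmr (1.34 higher, adjusted p = 0.0310). Their median ratio ranged from -3.08 to -1.99 in controls and from -1.21 to -0.78 in mutants, and control 3 was lower than controls 1 and 2 by a median of -1.22, against -0.44 for the members. Among the 3 brightest of the list, Cdc20, which activates the anaphase-promoting complex, read -1.50, -1.62 and -2.53 in controls and -0.02, -0.59 and -0.49 in mutants.

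Other cell types and layers differed between the arrays as well, and their part in the members' differences was not tested. Over all genes 50.6% of differences were positive, 2.82% were called by limma and 23.8% had an unadjusted p under 0.05. Macrophage and dendritic cell markers had 14 of 16 differences positive, with Cd68 and Csf1r called, and a summed sample signal of 15.5 to 16.7 (log2) in controls and 17.1 to 17.6 in mutants. Neutrophil markers summed to 16.4 to 17.4 in controls and 19.5 to 20.5 in mutants, with 5 of 11 well above background on each control array and 10 on each mutant array. Of the 10 tested, 4 (Ngp, Csf3r, Retnlg and Mmp8, named after their values were seen) were well above background on no control and entered the test through the mutants alone, which fixed their sign, and 4 were well above background on all 6 arrays. The 2 called were S100a8, which is also made by keratinocytes and was measured on all arrays (7.85 higher), and Retnlg, 1 of those 4. Each neutrophil sum is log2 of added signals, so bright genes weigh most and dim ones such as Retnlg add little. S100a9, the brightest gene of that list, differed by 0.04 in the ratio (adjusted p = 0.958, limma). How much of the rise in the neutrophil sums came from neutrophils was not tested. In the Cy5 channel Retnlg was at least 31.2-fold higher (adjusted p of its ratio 0.00599), a bound set against the dimmest signal well above background on each control array, or its own where brighter, and open to dye bias. Lymphocyte markers summed to 12.6 to 13.0 in controls and 13.0 to 13.9 in mutants. Squamous differentiation markers had 0 of 16 positive, with a median of -0.96 and 0 called by limma (7 with an unadjusted p under 0.05). Basal markers had 5 of 12 positive in the ratio, with a median of -0.14. By channel, the basal median difference was 0.15 in the sample, with 8 of 12 positive, and 0.20 in the reference. Their summed sample signal was 19.7 to 20.1 in controls and 19.9 to 20.5 in mutants.

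Control 3, the lowest array for most members, also stood apart in these lists. Relative to controls 1 and 2 its median was -3.12 for the 24 glandular markers, -2.06 for the 15 fibroblast, muscle and vessel markers and 1.08 for the squamous markers. On the summed scale the glandular markers reached 16.6 on control 3 and 19.0 to 21.2 elsewhere, and mutant 1, the highest array for most members, was next lowest. The fibroblast, muscle and vessel markers summed to 17.0 on control 3 and 18.6 to 19.4 elsewhere. Their differences were positive for 13 of 15, with a median of 0.68, close to the members' 0.69. With control 3 left out that median was 0.03, and the members' was 0.53. For the glandular markers 18 of 24 were positive, with a median of 0.32, or -0.43 without control 3. On the summed scale the glandular list and the fibroblast, muscle and vessel list were both lowest on control 3 and next lowest on mutant 1. The members were lowest on control 3 but highest on mutant 1. The part of these marker levels in the members' range was not tested, and the members' median difference was 0.35 without both arrays.

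The count of members called depended on how the arrays were treated far more than the direction did. With control 3 set apart as its own scan day, 1 member was called higher, Prim1, with 3.18% of all genes. Without both control 3 and mutant 1 there were 23, Mcm3 to Mcm7, Rrm1, Cdt1 and Pole among them, but 17.7% of all genes were called higher too, and the arrays left are the near-identical pairs. With arrays weighted by their agreement with their group, 22 members and 20% of all genes were called higher, the weights being 0.0840 for control 3, 0.174 for mutant 1 and 3.91 and 4.04 for mutants 2 and 3. With the slide as a random block 0 members and 0.0146% of all genes were called higher. Slide holds controls 1 and 2 on 1, control 3 on another and all mutants on the remaining one, so genotype and slide cannot be told apart except through the spread between the slides of the controls. With each near-identical pair averaged to 1 sample, 0 members and 0 genes passed in limma. At an unadjusted p under 0.05 there were 20 members and 2197 of 20575 genes, and the members' median was 0.88.

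**Figure D5:**
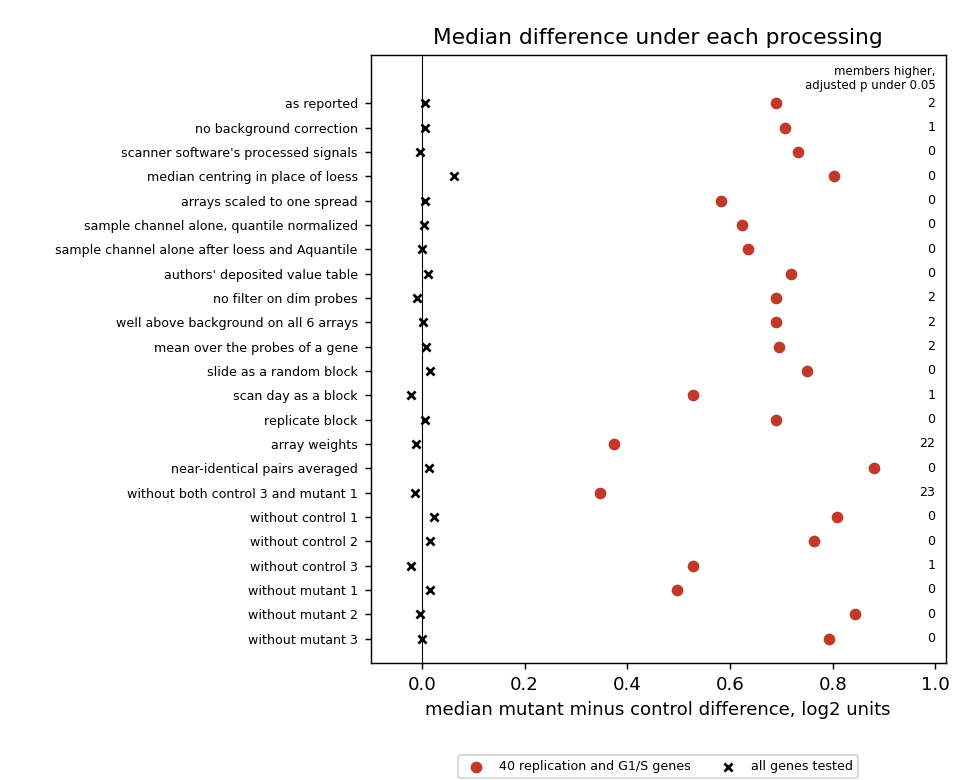
Median difference over the 40 members in log2 units and the number of members called, under the main settings and 22 alternatives. The median stays positive at 0.35 to 0.88, while the number called runs from 0 to 23.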

How the data were processed

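Members are found by gene name, without a threshold on any value, but the choice of these genes, of the other gene lists and of the alternatives was made with earlier results of these data known. Spot intensity values in both channels were deposited by the authors as the scanner software wrote them; per the file headers it was Agilent Feature Extraction 10.5.1.1, or 10.7.3.1 for control 3, with probe coordinates on mm9, while the submitters' processing notes give version 9.1. Here, limma 3.58.1 (R 4.3.3) applied normexp background correction with an offset of 50 and loess within each array, with control spots and spots flagged by the scanner as outliers at weight 0, and spots of a probe were averaged. A probe was kept if well above background in Cy5 on at least 3 of 6 arrays, and the brightest kept probe stands for a gene. Gene names come from RefSeq (GRCm38.p6) for 32699 of 41174 probes (79.4%) and from the files for the rest.

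Groups were compared with lmFit and eBayes over 20579 genes, two-sided, with Benjamini-Hochberg adjustment and a threshold of 0.05; 4 residual degrees of freedom and 3 arrays per group limit the precision. The per-array values printed are those of members that passed, of the 2 smallest p and the largest p of each subgroup, and of negative differences; other replication genes are named by smallest p and marker genes by brightness, and the called genes of a list of markers are named as well. Lists, subgroups and promoter windows are described and were not tested. Same-numbered controls and mutants had correlations of deviations of 0.00, 0.02 and 0.13, against -0.12 to 0.09 for the other combinations. With 3 arrays per group these values cannot show whether the numbers pair the arrays, and the main fit used no pairing.

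The authors also deposited log2 ratios in a value table, used as an alternative. Regressed on the scanner values, they ran as sample over reference (slopes 0.96 to 1.15). Column medians were 0.052, 0.06 and 0.026 in controls and 0.042, 0.043 and 0.039 in mutants; the sources used here do not give its normalization or centring. Mutants 1 and 3 appear exchanged between table and scanner files, each column agreeing best with the other's file (r = 0.988 each); statements on single arrays follow the scanner files. The fit was also run on simulated data, with 200 genes changed by known amounts. The simulated arrays were independent and held no near-identical pairs, so that run does not bear on the p-values of these arrays.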

Additional observations from a re-analysis of the deposited data

How the results depend on the processing

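Direction was steadier than the calls: 36 to 40 of 40 members were positive under the 22 alternatives, all chosen with earlier results known. Main counts were 581 genes, 2 members and 0 other replication genes called in limma. Without background correction 1 member was called (512 genes, 2.49% of those tested). It was 0 members on the scanner's processed signals (325 genes, 1.58%), with median centring (266, 1.29%) and with arrays scaled (418, 2.03%). On the sample channel alone it was 0 by quantile (304, 1.48%) and by Aquantile (347, 1.69%). The authors' deposited table also gave 0 (389, 1.89%). The slide as a random block gave 4 genes and 0 members. The replicate block, whose pairing by number could not be established, gave 137 and 0. At an unadjusted p under 0.05 the replicate block gave 29 members and 4625 of 20579 genes. The scan day as a block gave 1483 genes, 1 member and 2 other replication genes. Control 3 is the only array of its scan day, so that setting is in effect the same as leaving out control 3. Array weights gave 8617, 22 and 28; leaving out control 3 and mutant 1 gave 7733, 23 and 31; averaging the near-identical pairs gave 0 genes and 0 members, with 2197 genes at an unadjusted p under 0.05. Leaving out 1 array at a time gave 34 to 1483 genes, the highest without control 3, 0 to 1 members and 0 to 2 other replication genes. Under array weights the medians were 0.37 for all members, 0.42 for MCM and origin, 0.40 for polymerase and clamp loader and 0.13 for E2F and cyclin E; without control 3 and mutant 1 they were 0.35, 0.38, 0.38 and 0.10, and 0.23 for nucleotide supply.

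The sign turned for 5 members. Cdc6 was -0.00695 on processed signals, -0.00614 with averaged pairs, -0.0474 scaled, -0.16 by quantile and -0.13 by Aquantile, and -0.0160 to 0.11 with 1 array left out, negative without control 2 or mutant 3. Gins3 was -0.0169 scaled, -0.0747 by quantile, -0.0520 by Aquantile, -0.10 with array weights and -0.11 without control 3 and mutant 1, and -0.0911 (without mutant 1) to 0.15 with 1 array left out. Ccne2 was -0.0595 with array weights and -0.0896 without control 3 and mutant 1. Chaf1a was 0.0441 with the scan day as a block, 0.0871 with array weights and 0.0988 without control 3 and mutant 1, and -0.26 to 0.0441 (without control 3) with 1 array left out. Slbp was 0.00617 with the scan day as a block, and -0.31 to 0.00617 (without control 3) with 1 array left out. The cause was not tested. The number of arrays limits these results. In the sample channel, the probe standing for each member was well above background on all 6.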
